A study of Mus with 15 samples.

Results

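Deep intragenic H2Aub regions are stretches of thalamic chromatin, far inside protein-coding genes, in which monoubiquitinated histone H2A was enriched over input. They were chosen from 9 peak lists by merging all peaks on chromosomes 1 to 19 and keeping merged regions under 5000 bp wide, covered at their deepest base by 2 to 6 lists, lying wholly within the body of a protein-coding gene (mm10 coordinates) and more than 10 kb from both ends of every protein-coding gene. Of 72813 merged regions, 17540 met the limits on width and number of lists, 7628 of these lay inside a coding gene body and 3530 were deep intragenic, 4.85% of all merged regions. Peak presence, position and width thus chose the regions, and the fold enrichments, the treatment and genotype labels and the host genes' identities did not.

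H2Aub was profiled by ChIPmentation, a chromatin immunoprecipitation in which the Tn5 transposase adds the sequencing adapters on the beads, in thalami of mice aged 2 to 4 months, with 3 to 4 thalami pooled per sample per the labels. Control mice (WT) carried the loxP-flanked Maged1 allele without Cre, and Maged1-cKO mice (cKO) carried the same allele plus Vglut2-Cre, which deletes Maged1 in glutamatergic neurons that express Vglut2 and leaves it intact in glia and other cells. The methods describe hemizygous males. Every mouse received saline for 3 days and then an intraperitoneal injection of cocaine (20 mg/kg) or of saline on 5 days, which gave 3 libraries each of WT cocaine, WT saline and cKO saline and 2 of cKO cocaine. Replicate 1 of cKO cocaine and replicate 1 of cKO saline stood apart from the other 9. They held 54201 and 79872 peaks on these chromosomes against 7235 to 25972 in the others, and within the deep intragenic regions their highest fold enrichments over input were 24.3 and 22.2 against 4.47 to 6.13. They took no part in choosing the regions and are called the left-out libraries. That leaves 1 cKO cocaine and 2 cKO saline libraries beside the 3 per WT group. The lists hold no read counts, so depth is unknown, and a longer list from a more deeply read library cannot be told apart from a wider spread of the mark. The lists also hold no expression values, so the labelled tissue could not be checked against its markers, and in bulk thalamus more cells with the mark and more mark per cell cannot be told apart.

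Monoubiquitin on the C-terminal tail of H2A is written by the E3 ligases of Polycomb repressive complex 1 (PRC1) and removed by deubiquitinases. It is best known from the promoters and CpG islands of developmental regulators, which it helps to keep silent, and PRC1 also leaves lower levels of the mark across gene bodies and intergenic chromatin. Broad Polycomb domains in differentiated cells typically cover genes of other lineages, such as transcription factors of early development.

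The regions were short and mostly covered by few lists at their deepest base. Their median width was 662 bp (interquartile range 440 to 1044 bp, range 112 to 4913 bp) and they lay a median of 37.0 kb from the nearest coding gene end, with the farthest at 619 kb. The fold enrichment of a region, averaged over the lists with a peak in it, had a median of 3.43 and ran from 2.52 to 4.87. The number of lists of a region is counted at its deepest base, and further lists can have a peak elsewhere in it. Regions covered by 2 lists made up 64.0% of all (2259), followed by 714 in 3 lists, 307 in 4, 145 in 5 and 105 in 6. Median width went from 524 bp at 2 lists to 1845 bp at 6, while median fold enrichment differed little, from 3.41 to 3.60. At the edges of the rule, the 34 interior regions in 7 lists, just outside the limits, had a median fold enrichment of 3.71 and a median width of 1908 bp, and the 13157 seen in 1 list had 3.41 and 196 bp, so regions in 1 list were much narrower than those in 2 at like enrichment. The 147 regions at 9 to 10 kb from a gene end had a median of 3.41 against 3.43 for the 131 at 10 to 11 kb.

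In comparison, 6332 regions within the same limits touched no coding gene body and lay more than 10 kb from every coding gene end (far intergenic), and 5916 lay within 5 kb of a coding gene end (gene-end). Within each of the 9 libraries, peaks in deep intragenic regions had a slightly lower median fold enrichment than peaks in either other class. The difference was -1.04% against far intergenic regions and -1.15% against gene-end regions, in the same direction in 9 of 9 libraries (exact two-sided sign-flip permutation test over libraries, p = 0.0039 for both, the smallest it can give, adjusted p = 0.0078 over 4 comparisons). The difference from gene-end regions was smaller under some settings, with a log2 value of -0.0168 that went to -0.00687 in exactly 2 lists, -0.00710 with equal numbers of peaks and -0.00683 at q at most 0.01. The difference from far intergenic regions no longer passed when a peak had to cover at least 50% of a region (log2 difference -0.00868, exact p = 0.133). Peak width and the number of lists entered the choice of regions, so widths are given as a description. Peaks in deep intragenic regions were narrower than gene-end peaks by -9.43% in the median, in 8 of 9 libraries, a log2 difference of -0.14 that ran from -0.0521 in exactly 2 lists and -0.0893 in 3 to 6 lists to -0.36 at q at most 0.01. Against far intergenic regions the difference in width was 0.222%.

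The left-out libraries gave a reading of the regions that the choice did not use. cKO cocaine replicate 1 had a peak in 1143 of the 3530 regions (32.4%, 95% Wilson interval 30.9 to 33.9) and cKO saline replicate 1 in 1051 (29.8%, 28.3 to 31.3). These intervals cover counting error only. Both had a peak in 647 regions (18.3%), at least 1 of them in 1547 (43.8%) and neither in 1983 (56.2%). How many of the regions lists of this length would meet by their number of peaks was not tested.

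**Figure D1:**
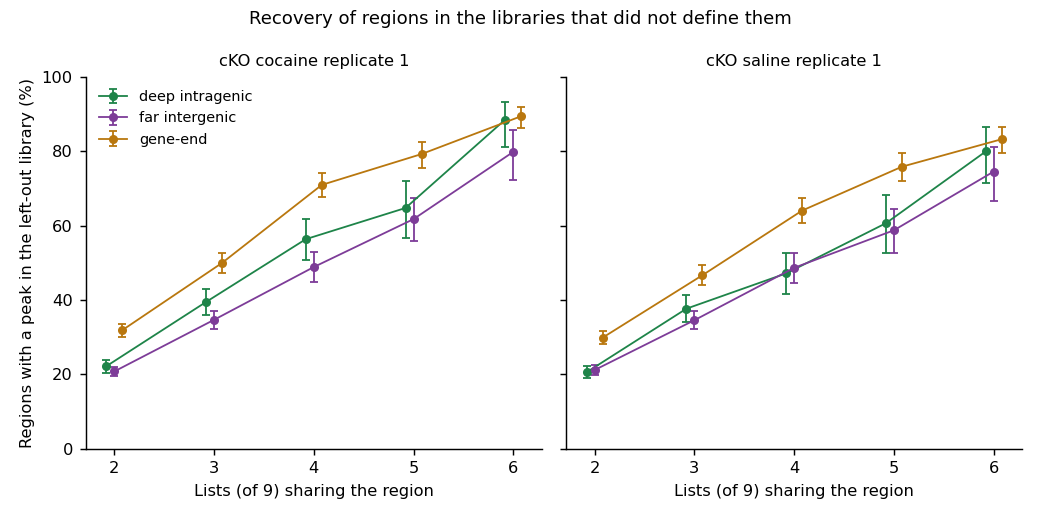
Percentage of regions with a peak in each of the 2 left-out libraries (vertical axis), by number of lists (horizontal axis). Lists are those of the 9 that cover the region's deepest base. Deep intragenic, far intergenic and gene-end regions are shown. Points are percentages and bars are 95% Wilson intervals. All 3 classes climb with the number of lists, and in cKO cocaine replicate 1 deep intragenic regions go from 22.2% at 2 lists to 88.6% at 6.

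Recovery climbed steeply with the number of lists. In cKO cocaine replicate 1 it was 22.2% for regions in 2 lists, 39.5% in 3, 56.4% in 4, 64.8% in 5 and 88.6% in 6, and in cKO saline replicate 1 it was 20.6%, 37.7%, 47.2%, 60.7% and 80.0%. Of the 13157 interior regions seen in 1 list, outside the rule, the same libraries had a peak in 1118 and 1184. The plot of recovery by number of lists shows the same climb in far intergenic and gene-end regions, with gene-end regions higher at 2 lists (31.9% and 29.9%). Width moved with the number of lists. Among regions of 500 bp to under 1000 bp, recovery in cKO cocaine replicate 1 was 14.2% for 1 list, 23.6% for 2, 36.5% for 3 and 49.0% for 4, and in cKO saline replicate 1 it was 14.2%, 22.8%, 32.7% and 33.7%. Few regions of this width were in more lists, and the values at 5 and 6 lists were 13 of 25 and 3 of 8 regions in the first library and 9 and 4 of the same regions in the second.

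Across the 9 libraries, the regions were found most often in WT cocaine samples. The 3 WT cocaine libraries had a peak in 1990, 1851 and 1395 of the 3530 regions, a mean of 1745 ± 311 (SD, n = 3), or 49.4% ± 8.82. The 3 WT saline libraries had a peak in 1552, 508 and 933, a mean of 997.7 ± 525 (SD, n = 3). WT saline replicate 1 lay above WT cocaine replicate 3, so the groups overlapped. The remaining cKO cocaine library had a peak in 1338 regions (37.9%), and the remaining cKO saline libraries in 795 and 322 (558.5 ± 334, SD, n = 2).

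**Figure D2:**
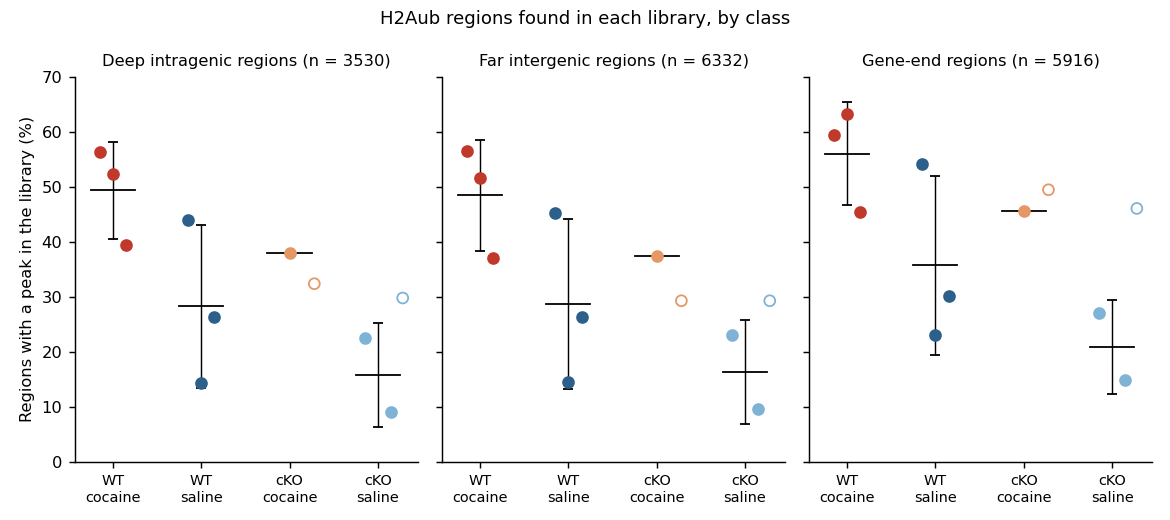
Percentage of deep intragenic, far intergenic and gene-end regions with a peak in each library (vertical axis), by group (horizontal axis). Filled points are the libraries that defined the regions, open points the 2 left-out libraries, and horizontal bars and whiskers the mean and SD of the filled points (no SD for the single cKO cocaine library). WT cocaine libraries lie between 39.5% and 56.4% of deep intragenic regions and WT saline libraries between 14.4% and 44.0%.

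The number of regions found was 1.91 times as high in WT cocaine as in WT saline libraries on the log2 scale (0.93 ± 0.49, SE, exact two-sided permutation p = 0.200, adjusted p = 0.525 over 9 comparisons). In cKO saline against WT saline it was 0.560 times as high (log2 -0.84 ± 0.80, SE, exact permutation p = 0.400), a value that went to -0.18 without cKO saline replicate 3, -1.49 without cKO saline replicate 2, -0.44 without WT saline replicate 1 and -1.25 without WT saline replicate 2. With treatment permuted within genotype over all 9 libraries, cocaine against saline gave a log2 difference of 1.05 (exact permutation p = 0.0667, adjusted p = 0.525). None of these differences was larger than the spread between libraries by its test, and 3 against 3 or 2 against 3 libraries cannot give a p below 0.10 (0.0167 for the test within genotype). Peak presence in these same lists chose the regions, so the numbers found are not independent of the choice. The last test rested on which libraries entered, since its unadjusted exact permutation p was 0.0333 without WT saline replicate 1 (log2 difference 1.26) and 0.0350 with both left-out libraries added (0.93). Separate samples are labelled as replicates, but nothing shows which were processed together, so the spread may be partly technical.

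The differences in number moved with list length. The regions were themselves drawn from these lists, without regard to group, so a library with a longer list brought in more of them. The libraries held 15830 to 25972 peaks in WT cocaine, 8916 to 23681 in WT saline and 7235 to 10765 in cKO saline, and the share of a library's peaks that fell in deep intragenic regions was 7.74 to 9.85% in WT cocaine, 5.99 to 8.18% in WT saline, 8.26% in cKO cocaine and 4.60 to 7.83% in cKO saline. When every library was cut to its 7271 strongest peaks by q, the length of the shortest list with X and Y included, the log2 difference between WT cocaine and WT saline fell from 0.93 to 0.36 (exact permutation p = 0.200), and the difference between cKO saline and WT saline went to -0.19 (exact permutation p = 0.600). The 3530 regions were kept as they were for this. When a peak had to cover at least 50% of a region, the difference between WT cocaine and WT saline was 1.56 (exact permutation p = 0.10) and that within genotype 1.62 (exact permutation p = 0.050). Single libraries moved the former too, from 0.52 without WT saline replicate 2 to 1.33 without WT saline replicate 1. Detection of deep intragenic regions relative to gene-end regions did not separate the groups either, with log2 differences of 0.21 (exact permutation p = 0.30) for WT cocaine against WT saline and -0.0970 (exact permutation p = 0.700) for cKO saline against WT saline. The first of these was 0.31 without WT saline replicate 3, 0.0600 without WT saline replicate 2, 0.0559 with equal numbers of peaks, 0.0781 at q at most 0.01 and 0.0161 at 50% coverage. The median fold enrichment of peaks in the regions ranged from 3.04 to 3.51 in WT cocaine and from 3.44 to 3.81 in WT saline libraries, which overlapped, with a log2 difference of -0.0968 (exact permutation p = 0.600) that was -0.0286 without WT cocaine replicate 1, -0.0503 without WT saline replicate 2 and -0.0466 with equal numbers of peaks.

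On average, libraries of one group shared more regions with each other than with libraries of other groups, but not in every group. The Jaccard index, the number of regions found in both of 2 libraries over the number found in either, averaged 0.246 over 7 pairs within groups and 0.183 over 29 pairs between groups (exact one-sided permutation of the group labels, p = 0.0187). WT cocaine pairs had indices of 0.315 to 0.390. WT saline pairs had 0.146 to 0.240 and the cKO saline pair 0.102, below the mean between groups, and WT saline replicate 1 shared more with the WT cocaine libraries (0.274 to 0.318) than with the other WT saline libraries (0.174 and 0.240). The index also moves with the number of regions found, which was highest on average in WT cocaine. Without WT cocaine replicate 1, 2 or 3 the difference was 0.0190, 0.0243 and 0.0283, with exact permutation p of 0.245, 0.208 and 0.186. With equal numbers of peaks per library and the same regions kept, the difference was 0.0216 (exact permutation p = 0.0222). The rule required overlap of at least 2 of these lists, so sharing itself entered the choice. The indices and p-values hold only for regions chosen this way.

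Region by region, 136 deep intragenic regions (3.85%) had peaks in each of the 3 WT cocaine lists but in none of the WT saline lists, and 10 (0.283%) had the reverse. Among all 17540 regions within the limits on width and lists the same patterns were seen in 3.76% and 0.291%, so the deep intragenic regions were close to the background in both directions. More WT cocaine than WT saline libraries had a peak in 54.1% of the regions (background 53.7%) and fewer in 16.8% (background 17.5%). Over all 9 lists, 967 regions (27.4%) were in cocaine lists alone (background 24.7%) and 216 (6.12%) in saline lists alone (background 6.41%), with the other 2347 in both. All 4 cocaine lists and no saline list marked 27 regions (0.765%, background 0.707%), and all 5 saline lists and no cocaine list marked 0 (background 0%), a pattern counted over more saline than cocaine lists.

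The cKO libraries gave a second view of the 136 regions marked in cocaine samples only among WT mice, set beside the other regions found in 3 WT libraries. cKO cocaine replicate 2 had a peak in 41 of the 136 (30.1%), against 86 of the 314 regions found in 2 WT cocaine and 1 WT saline libraries (27.4%) and 35.3% of those found in 1 WT cocaine and 2 WT saline libraries. The left-out cKO cocaine replicate 1 had 39.7%, 37.9% and 37.0% in the same order. The cKO saline libraries gave 14.7%, 21.7% and 20.2% in replicate 2, 5.88%, 7.32% and 9.24% in replicate 3 and 38.2%, 34.7% and 31.9% in the left-out replicate 1. Of the 10 regions with the reverse pattern, cKO cocaine replicates 1 and 2 had a peak in 4 and 2, and cKO saline replicates 1, 2 and 3 in 5, 3 and 0. Each value comes from 1 library and regions that lie close together are not independent, so these shares are descriptions and were not tested.

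The 8 of these 136 regions with the highest mean fold enrichment were in Ebf2, Esrrb, Asic2, Baiap2, Dab1, Thsd4, Ptpre and Tns3. In Ebf2, which encodes a transcription factor of neuronal and fat cell differentiation, the region chr14:67344479-67345786 had fold enrichments of 3.49, 3.62 and 4.95 in WT cocaine replicates 1, 2 and 3 and no peak in any other library. The same held for Esrrb, an orphan nuclear receptor, at chr12:86401030-86401984 with 3.13, 4.31 and 4.09, and for Ptpre, a receptor-type tyrosine phosphatase, at chr7:135668756-135669210 with 3.65, 4.08 and 3.34. In Asic2, an acid-sensing cation channel of neurons, the region chr11:81802203-81804146 had 3.29, 3.74 and 4.40 in WT cocaine and 3.91 in cKO cocaine replicate 2. It had no peak in WT saline or in cKO saline replicates 2 and 3, but the left-out cKO cocaine and cKO saline libraries had 18.9 and 15.4 there.

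The region of Baiap2, a scaffold of dendritic spines, at chr11:119970314-119971941 had 3.12, 4.12 and 4.11 in WT cocaine, 3.54 in cKO cocaine replicate 2 and 4.86 and 6.70 in the left-out libraries. The region of Dab1, the adaptor of the reelin receptors, at chr4:103634132-103634771 had 3.23, 4.18 and 3.67 in WT cocaine and 3.05 in the left-out cKO cocaine library. The region of Thsd4, an extracellular matrix protein of microfibrils, at chr9:60310488-60311234 had 3.12, 3.54 and 4.45 in WT cocaine and 3.67 in cKO cocaine replicate 2. These 3 regions had no peak in cKO saline replicates 2 and 3. In Tns3, which links integrins to actin, the region chr11:8623093-8623768 had 3.56, 3.56 and 3.64 in WT cocaine, 3.33 in cKO cocaine replicate 2, and also 3.87 and 4.14 in cKO saline replicates 2 and 3. In cKO mice this region was therefore found under both treatments.

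Of the 10 regions with the reverse pattern, Dnah2, an axonemal dynein chain, held the one with the highest mean fold enrichment, at chr11:69520766-69521819 with 3.76, 4.05 and 3.50 in WT saline replicates 1, 2 and 3. The region of Nfix, a nuclear factor I transcription factor, at chr8:84782259-84782922 had 3.43, 3.86 and 3.57. The region of Tcf7, a transcription factor of T cells and Wnt signaling, at chr11:52271915-52273291 had 3.12, 3.73 and 3.23, and 4.09 in cKO saline replicate 2. The regions next in order, in Slc39a11, Stra6, Pdia5, Ntn1 and Arhgef10l, had mean fold enrichments of 3.54, 3.52, 3.51, 3.49 and 3.43. Among all 8, cKO cocaine replicate 2 had a peak in the regions of Stra6, the receptor for retinol-binding protein (3.69), and Arhgef10l (3.01). cKO saline replicate 2 had a peak in those of Tcf7 and Stra6 (3.57), and cKO saline replicate 3 in none. Stra6, Slc39a11 and Arhgef10l also held regions of the opposite pattern.

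Among regions covered by 6 lists at their deepest base, the highest mean fold enrichment, 4.31, was in Gphn, which encodes the inhibitory synapse scaffold gephyrin. This region of 201 bp at chr12:78350906-78351106 had 3.24 in WT cocaine replicate 1, 4.29, 4.38 and 4.02 in WT saline, 5.33 in cKO cocaine replicate 2, 4.62 in cKO saline replicate 2, and 7.14 and 11.1 in the left-out libraries. It was thus found in 3 of 3 WT saline and 1 of 3 WT cocaine libraries. In Auts2, which encodes a subunit of a variant PRC1 complex, the region chr5:131672303-131677215 was the widest of all at 4913 bp and lay 235 kb from the nearest coding gene end. Its fold enrichments were 3.38, 4.47 and 4.99 in WT cocaine, 4.19, 4.42 and 3.76 in WT saline, 3.69 in cKO cocaine replicate 2 and 3.88 in cKO saline replicate 2, with no peak in cKO saline replicate 3. The groups overlapped there. The others of the 10 highest means were in Ets1 (4.17), Unc45b (4.09), Bnc2 (4.02), Pax3 (4.00), Hpcal1 (3.95), Mecom (3.93), Zfp64 (3.93) and Tfap2b (3.92). Ets1, Bnc2, Pax3, Mecom and Tfap2b encode transcription factors of cell lineages, Unc45b a myosin chaperone and Hpcal1 a neuronal calcium sensor. The regions of Zfp64 and Hpcal1 had a peak in every one of the 9 lists, although no single base was covered by more than 6.

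The 3530 regions were gathered in few genes. Of 20665 coding genes on chromosomes 1 to 19, 9425 had interior more than 10 kb from all coding gene ends, and 1019 of these (10.8%) hosted at least 1 region. Among the hosts 467 (45.8%) had a single region, 353 had 2 to 4, 126 had 5 to 9 and 73 had at least 10. Those 73 genes held 1346 regions, 38.1% of all. Only 20 regions lay in the overlap of 2 coding genes. The eligible interior added up to 702 Mb, which gave 5.03 regions per Mb, and the regions covered 0.425% of it.

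Regions also lay close to each other. Another deep intragenic region was within 5 kb of 61.4% of them and within 50 kb of 83.1%, with a median gap of 2.16 kb to the next. Far intergenic regions had 63.7%, 86.6% and 1.96 kb. A broad H2Aub region of at least 5000 bp in at least 2 lists lay within 50 kb of 15.0% of deep intragenic and 16.0% of far intergenic regions, and a region in at least 7 lists within 50 kb of 30.2% and 29.9%. The interior regions thus lay in clusters of like spacing to those between genes, most of them with no broad domain nearby. Ends of non-coding genes, which the rule did not use, were within 1 kb of the midpoints of 152 regions (4.31%), while 1.99% of the eligible interior was that close to one.

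Prdm16, which encodes a zinc finger transcription factor of neural progenitors and brown fat, hosted more regions than any other gene. Its 79 regions in 301 kb of eligible interior (chr4:154316122-154637360, 26.2 regions per 100 kb) spread over 300 kb. WT cocaine replicates had a peak in 61, 52 and 45 of them, WT saline replicates in 42, 17 and 33, cKO cocaine replicate 2 in 43, cKO saline replicates 2 and 3 in 23 and 7, and the left-out libraries in 34 and 31. Every WT cocaine library was above every WT saline library. As a share of all deep intragenic regions found in a library, the WT cocaine and WT saline values of Prdm16 overlapped.

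**Figure D3:**
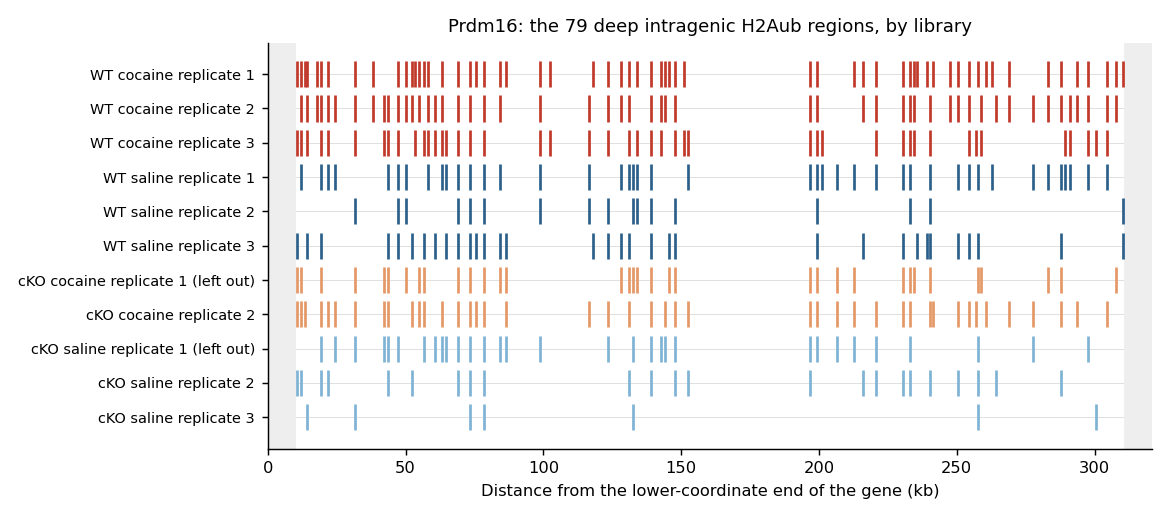
Positions of the 79 deep intragenic H2Aub regions along Prdm16, as distance from the lower-coordinate end of the gene in kb (horizontal axis), with a tick for each region that has a peak in the library (rows, coloured by group). Grey bands mark the 10 kb at both ends that the rule left out. Ticks spread over much of the interior and number from 61 in WT cocaine replicate 1 to 7 in cKO saline replicate 3. Only the chosen regions are drawn, so the empty stretch in the middle holds none of them and does not show a lack of other peaks.

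Slc39a11, a zinc transporter gene, had 52 regions, Gse1, a coiled-coil protein found with histone demethylase complexes, had 49, and Asic2 and Ttc28 had 38 each. Arhgef10l had 33. Casz1, a zinc finger transcription factor of heart and retina, Col27a1, a fibrillar collagen of cartilage, and Sh3pxd2a, the podosome scaffold Tks5, had 32 each. Pdzrn3 had 28, Tspan18 27, Septin9 and Tead1 26 each, Frmd4b 24 and Ephb2 23. Asic2 spread its 38 regions over a gene of 1088 kb, at 3.63 per 100 kb, whereas Col27a1 packed 32 into 101 kb of interior, at 31.7 per 100 kb.

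**Figure D4:**
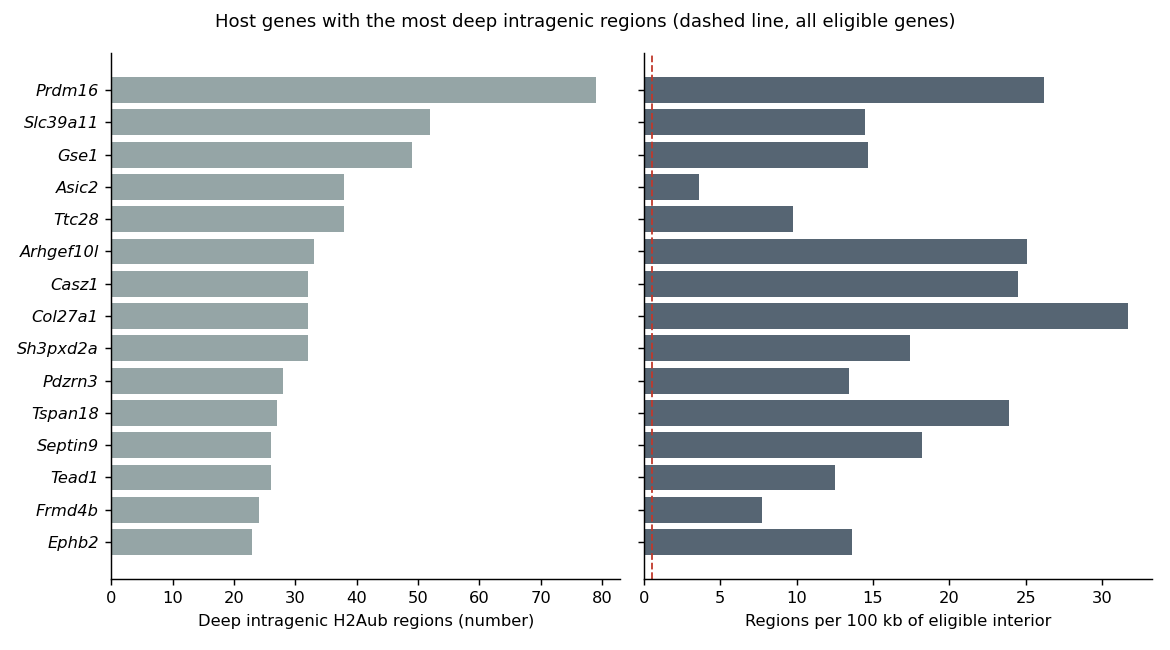
Number of deep intragenic H2Aub regions (left, horizontal bars) and their number per 100 kb of eligible interior (right) in the 15 host genes with the most regions. The dashed line marks the density over all eligible genes. Prdm16 leads with 79 regions, and Col27a1 is densest of the 15 at 31.7 per 100 kb.

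Among hosts with at least 3 regions, the densest were mostly small genes. Calr4, a calreticulin-like gene, had 36.2 regions per 100 kb from 6 regions in 16.6 kb of interior. Tfap2b, an AP-2 transcription factor of neural crest and kidney, had 3 regions in 9.94 kb (30.2 per 100 kb). Stra6 had 14 regions in 50.2 kb (27.9 per 100 kb). A count of 3 to 6 regions leaves such densities imprecise.

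The ends of host genes carried H2Aub more often than those of other genes. A window at either end, reaching 5 kb outward and 2 kb into the gene, held a region in at least 2 lists in 671 of 1019 hosts (65.8%) and in 1631 of 8406 eligible genes without a deep intragenic region (19.4%). For hosts with at least 10 regions it was 59 of 73 (80.8%). With at least 7 lists required, the values were 23.4%, 3.95% and 41.1%. Hosts were higher in each of the 5 length classes, by less in longer genes, with 75.0% against 18.7% in genes of 20 to 50 kb and 45.9% against 21.9% above 500 kb. These come from the same libraries as the regions and are descriptions. Among the 15 hosts with the most regions, the exceptions were Slc39a11, the second-ranked, whose end windows held no region in any list, and Ttc28, with 1 list at most. The table of genes gives no strand and no exons, so start and end of a gene, and exon and intron, were not told apart here.

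Density was not even over gene length, distance and chromosomes. It was 6.41 regions per Mb in genes of 20 to 50 kb, 7.14 in genes of 100 to 200 kb, 5.22 in genes of 200 to 500 kb and 1.73 in genes above 500 kb. By distance from the nearest coding gene end it went from 6.33 per Mb at 10 to 20 kb to 5.77 at 50 to 100 kb, 3.47 at 100 to 200 kb and 1.26 farther in. Chromosomes 11, 4 and 19 had 10.4, 10.2 and 8.61 regions per Mb and chromosome 3 had 1.55. The longest genes, which are largely neuronal, thus held fewest regions for their length.

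Groups of genes with known roles differed widely in density. In developmental transcription factors with long genes, 37 of 67 eligible genes (55.2%) were hosts, with 340 regions and 16.8 per Mb, against 10.8% and 5.03 per Mb over all eligible genes. Genes of 200 to 500 kb, the class that holds the list's median gene length of 208 kb, had 26.1% hosts and 5.22 per Mb. Prdm16 and Casz1 led, followed by Sox6, a factor of oligodendrocyte and interneuron development, with 20 regions, while Rbfox1, an RNA-binding splicing regulator that the list also holds, Zbtb20 and Zfpm2 were the longest without one. Polycomb subunits and H2A deubiquitinases had 7 hosts among 29 (24.1%) and 29 regions in 2.41 Mb, or 12 per Mb, against 11.8% hosts and 6.10 per Mb for genes of 50 to 100 kb, the class of the list's median gene length of 56 kb. Auts2 held 13 of these regions and 1086 kb of the list's interior, so it weighs heavily in the list's density. Genes above 500 kb, its class, had 1.73 per Mb. Kdm2b and Scml4 had 4 regions each, and the other hosts held the rest. Kdm2b recruits variant PRC1 to CpG islands.

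Axon guidance ligands and receptors had 14 hosts among 40 (35.0%), 104 regions and 8.54 per Mb, against 260 hosts among 1368 and 7.14 per Mb for genes of 100 to 200 kb, the class of the list's median gene length of 193 kb. Ephb2, an Eph receptor tyrosine kinase, and Sema5b, a semaphorin, had 23 regions each, at 13.6 and 22.3 per 100 kb, and Ntn1 had 15. The long receptor genes Robo2, Dcc and Robo1 had none. Potassium, calcium and sodium channels had 10 hosts among 53 (18.9%) and 3.59 per Mb, against 26.1% and 5.22 per Mb for genes of 200 to 500 kb, where their median length of 280 kb lies. They were led by Kcnq1 with 16, the T-type calcium channel Cacna1i with 11 and Kcnip1 with 8.

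Synaptic adhesion molecules and neurite organizers had 18 hosts among 62 (29.0%), but their interiors are long, and 58 regions in 48.2 Mb gave 1.20 per Mb. Genes above 500 kb as a whole, the class of the list's median gene length of 747 kb, had 28.2% hosts and 1.73 per Mb. Tenm4, a teneurin, held 17 of them, and Ptprd, Cntnap2 and Lsamp were the longest genes of the list without a region. Glutamate and GABA receptor subunits had 3 hosts among 33 (9.09%), namely the kainate receptor genes Grik4 with 11 regions and Grik3 with 2, and Gabra5 with 1, at 1.28 per Mb. Genes of 200 to 500 kb, the class of the list's median gene length of 240 kb, had 26.1% hosts and 5.22 per Mb.

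Lists of cell type markers of the thalamus were small and are set beside the 10.8% hosts and 5.03 regions per Mb of all eligible genes. Microglial and endothelial genes had 6 hosts among 14 (42.9%) and 4.96 regions per Mb, near the density of all genes. Runx1, a blood cell factor, contributed 5 of their 11 regions. Genes of thalamic glutamatergic neurons had 5 hosts among 17 (29.4%) and 2.88 per Mb, with 4 regions in Pou2f2, 2 in Rora and 1 in Foxp2. Oligodendrocyte genes had 2 hosts among 15 (13.3%) and 1.55 per Mb, and astrocyte genes 4 among 13 (30.8%) and 0.947 per Mb. The median gene of each list was 100 to 200 kb long, a class with 260 hosts among 1368 and 7.14 per Mb. With 5 to 11 regions per list, 1 gene can set the density of a list. Several genes, among them Auts2, Rora, Runx1, Mecom and Foxp2, stand in 2 lists.

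**Figure D5:**
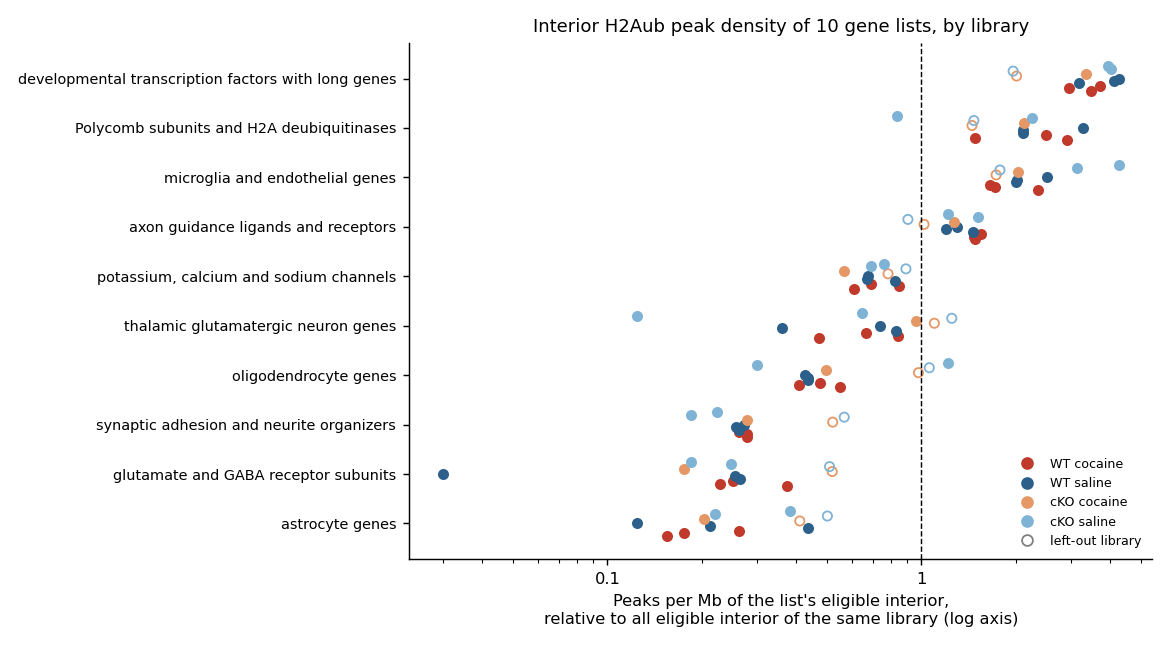
Number of interior H2Aub peaks per Mb in each of the 10 gene lists, divided by that of all eligible interior in the same library (horizontal log axis), for each list (rows). Every peak under 5000 bp in the interior is counted, shared or not. Filled points are the 9 libraries, open points the 2 left-out libraries, coloured by group, and the dashed line marks the density of all eligible genes. Developmental transcription factors lie between 2.96 and 4.25 in the 9 libraries and synaptic adhesion genes between 0.184 and 0.279.

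Single libraries were also read by every interior peak, shared or not. Developmental transcription factors had 2.96 to 4.25 times the peak density of all eligible interior in the 9 libraries, a median of 3.71. Axon guidance genes had 1.20 to 1.55 times, synaptic adhesion genes 0.184 to 0.279 times and receptor subunits 0.0299 to 0.373 times, the lowest of these from 1 peak in WT saline replicate 3. The microglial and endothelial genes, near the density of all genes by shared regions, had 1.66 to 4.25 times the density by peaks. Polycomb subunits and deubiquitinases had 0.838 to 3.28 times, on both sides of all genes. Oligodendrocyte genes had 0.30 to 0.550 times in 8 of the 9 libraries but 1.22 times in cKO saline replicate 3, and 0.979 and 1.06 times in the left-out libraries. Genes of thalamic glutamatergic neurons had 0.124 to 0.960 times in the 9 libraries, below all genes, but 1.10 and 1.25 times in the left-out libraries. In the left-out libraries the values of the other lists included 1.96 and 2.01 times for developmental transcription factors, 0.522 and 0.568 times for synaptic adhesion genes, 0.510 and 0.520 times for receptor subunits and 0.906 and 1.02 times for axon guidance genes. These 2 libraries had 20.3 and 30.2 interior peaks per Mb against 1.49 to 7.59 in the 9. For axon guidance genes the WT cocaine libraries (1.47 to 1.55) lay above the WT saline libraries (1.20 to 1.46), by a narrow margin. The ranges of the other 9 lists overlapped between the treatments.

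Among the 199 hosts with at least 5 regions, 25 (12.6%) had more regions found in every WT cocaine library than in every WT saline library, and 0 had fewer. They included Prdm16, Slc39a11, Asic2, Sh3pxd2a, Tspan18 and Septin9, the homeodomain factors Lmx1a and Pax7, and Slit1, a repellent axon guidance ligand. The number of regions found over all genes also differed between these libraries. As a share of each library's deep intragenic regions, 19 hosts (9.55%) were higher in every WT cocaine library and 9 (4.52%) were lower. The higher ones included Septin9, Grik4, Ebf2, Slit1, Disc1, Nav1 and Dab1, and the lower ones Bcl11b, Pax3, Arhgef3, Trak1 and Rtn1. No count of this kind was tested gene by gene. No such share is given here for far intergenic or gene-end regions, so these counts have no background beside them. With 3 against 3 libraries there are 20 label arrangements, so separation in a single host carries little weight. Septin9, a cytoskeletal GTPase, is an example of a host higher by both measures. WT cocaine libraries had a peak in 22, 18 and 14 of its 26 regions and WT saline libraries in 12, 4 and 3, while cKO cocaine replicate 2 had 11 and cKO saline replicates 2 and 3 had 10 and 4.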

How the data were processed

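As the labels and the methods state, the authors trimmed reads with Cutadapt, mapped read pairs to mm10 with Bowtie2 (2.3.4.1), kept alignments of high mapping quality and called broad peaks with MACS2 (2.1.1.20160309.3) against input, 1 list per library, without pooling replicates. The deposited lists give the −log10 q and −log10 p of a peak, its fold enrichment (a ratio) and a whole-number score, all computed by the authors within a library. The score and the −log10 p were not used. The deposited lists run to q values of 0.0976 to 0.0997, above the rate stated in the methods, and 9.82 to 32.9% of their peaks had q above 0.05. Read counts are not in the lists, so depth was not corrected for, and the number of libraries limits precision. The 4 input libraries, 1 per group, were not analysed here. The methods do not say which input each list was called against. If the libraries of a group shared 1 input, a feature of that input cannot be told apart from the group.

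Overlapping or touching peaks of the 9 lists were merged, and a region counted as found in a library when a peak shared at least 1 base with it. Genes came from a RefSeq table of GRCm38.p6, the coordinates of mm10. The regions, the 10 gene lists and the tests were chosen with earlier results of these data known. By symbol, 67 of 68 developmental factors, 41 of 44 Polycomb genes, 20 of 21 oligodendrocyte genes and every gene of the other 7 lists matched. Host genes were named as the 15 with the most regions, the 10 densest with at least 3 regions and the first 3 of each list. Regions were named by mean fold enrichment within each pattern, 10 in 6 lists and 8 of each WT pattern. Groups were compared by exact permutation tests over libraries with Benjamini-Hochberg adjustment within families of 9 and 4 comparisons. No count model was used. Wilson intervals are at 95%. Python 3.11.15, numpy 2.4.6, pandas 2.3.3 and scipy 1.17.1 were used, and the scripts were tested on simulated peak lists. Alternatives were q at most 0.05 or 0.01, 3 to 6 lists, 20 kb from gene ends, distance from every gene, 50% coverage of a region, equal numbers of peaks, the left-out libraries added, a replicate block and leaving out each library. Comparisons among regions in exactly 2 lists were chosen after seeing the data.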

Additional observations from a re-analysis of the deposited data

Results flagged for a closer look

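Both libraries that had no part in choosing the regions had peaks in them. The left-out cKO cocaine replicate 1 had a peak in 1143 and the left-out cKO saline replicate 1 in 1051 of the 3530 deep intragenic regions. Both counts are listed because they come from data outside the main comparisons. Lists of 54201 and 79872 peaks are long enough that a count above 0 is no result in itself. Median fold enrichments of their peaks in the regions were 3.63 and 3.83, against 3.04 to 3.84 in the other 9 libraries. Peaks in the regions made up 2.21% and 1.36% of all their peaks, against 4.60 to 9.85%.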

How the results depend on the processing

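Depth is unknown, 1 or 2 cKO libraries remain per group and each test between groups of 3 and 3 or 2 and 3 libraries has a smallest p of 0.10, so missed thresholds there say nothing about stability. Of the values under alternatives, 214 kept their direction and side of the threshold or, for counts, moved by less than 1.5 times, 8 changed direction, 5 no longer passed, 2 newly passed and 10 counts moved by over 1.5 times. Causes were not tested.

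The number of deep intragenic regions was 3530, and 1271 in 3 to 6 lists or 410 at q at most 0.01. Host genes numbered 523, 678 (more than 20 kb from coding gene ends) and 249 (q at most 0.01). Regions marked in all 3 WT cocaine and no WT saline libraries fell from 136 to 14 at q at most 0.01 (3.41%, background 3.97%) and were 106 in 3 to 6 lists (8.34%, background 7.25%), and those with the reverse pattern to 5 at q at most 0.05, 0 at q at most 0.01, 5 in 3 to 6 lists and 6 beyond 20 kb. With both left-out libraries added, cocaine against saline within genotype gave a log2 difference in number of 0.93 (exact permutation p = 0.0350). Leaving out single libraries it ranged from 0.78 to 1.26, and it passed only without WT saline replicate 1. Where an omission left 1 treatment in a genotype, that genotype dropped out, and where it left 1 cKO saline library, that library was the group's value.

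The difference in sharing between libraries ranged from 0.0190 to 0.0942 on leaving out single libraries. Detection relative to gene-end regions for cKO saline against WT saline (-0.0970) ranged from -0.32 to 0.13 on leaving out single libraries, and was above 0 without WT saline replicate 3 (0.00366) and without cKO saline replicate 3 (0.13). Its fold enrichment difference (0.0407) ranged from -0.0241, without cKO saline replicate 3, to 0.11, and was -0.00881 with equal numbers of peaks. The fold enrichment difference from far intergenic regions was -0.00868 at 50% coverage. The width difference from far intergenic regions (0.00320) was -0.0317 in exactly 2 lists, -0.0214 beyond 20 kb, and from -0.00494 (WT saline replicate 1 left out; -0.00207 for WT cocaine replicate 1) to 0.0113 on leaving out single libraries, and that from gene-end regions was -0.0521 in exactly 2 lists.

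WT cocaine and WT saline share replicate numbers. Deviations from the group means in 10 kb bins correlated at 0.270, 0.117 and -0.109 for equal numbers, and WT cocaine replicate 3 correlated best with WT saline replicate 2 (0.421), so the numbers were not taken as pairs. With the replicate block the log2 difference in number was 0.93 (exact permutation p = 0.25), that in detection relative to gene-end regions 0.21 and that in fold enrichment -0.0968, with no call changed.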
